A study of Drosophila melanogaster with 27 samples.

Results

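The 9 genes described here are genes of the larval fat body, measured in ovaries of *Drosophila melanogaster*: the hexamerin genes *Lsp1alpha*, *Lsp1beta*, *Lsp1gamma* and *Lsp2*, the hexamerin receptor gene *Fbp1*, the storage protein gene *Fbp2*, the odorant binding family gene *Obp99b*, and the lipoprotein genes *apolpp* and *Apoltp*. They are 9 of the 16257 genes in the count tables, matched by FlyBase identifier and symbol, and all 9 were found in both tables. They were selected on their measured counts, which differed between stages in whole ovaries and were low in sorted cells. Their levels in whole ovaries are therefore given as a description, without a test. RNA was sequenced from larval ovaries at 72, 96 and 120 h after egg laying (AEL), called early, mid and late, which span the formation of the terminal filaments, the stacks of somatic cells that found each ovariole. Whole ovaries were from Oregon R larvae. Somatic cells were sorted by GFP from bab:Gal4>GFP larvae and germ cells from nos:GAl4>GFP larvae, both from crosses to a nuclear GFP reporter line, UAS Green Stinger, and the *nos* driver stock also carries UAS-Dcr-2. The *bab* driver marks the ovarian somatic cells together rather than a single type of them, and each library was made from pooled ovaries. Each of the 9 combinations of tissue and stage had 3 replicate libraries, 27 in all.

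The larval fat body is the counterpart of liver and adipose tissue, and it surrounds the ovary. It secretes hexamerins, large storage proteins of the blood, which it later takes back through the receptor encoded by *Fbp1* as a store of amino acids for metamorphosis. Lipids travel in the blood on lipophorin, whose protein is encoded by *apolpp*, and the lipid transfer particle encoded by *Apoltp* helps to load them. In this study the ovaries were cut free of the fat body with needles, whole ovaries were crushed directly in Trizol, and sorted cells first went through trypsin, Liberase and the cell sorter. Strain, dissociation and sorting thus differ together between whole ovaries and sorted cells and cannot be told apart. Between germ and somatic cells the driver stock differs together with the tissue, and these cannot be told apart either.

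The libraries held 9680615 to 72875881 counts. Germ cell markers separated the sorted tissues, and somatic markers did so in part. The summed level of 4 germ cell genes (*vas*, *nanos*, *aub*, *AGO3*) was 1752 to 4362 CPM, counts scaled to the depth of the library, in the 9 germ libraries and 7.64 to 34.4 CPM in the 9 somatic libraries. The somatic genes *tj*, *bab1*, *bab2* and *fax* summed to 2614 to 9103 CPM in somatic libraries, and to 140 to 3664 CPM in germ libraries, so that the ranges overlapped. Of these 4 somatic genes *tj* and *fax* were called lower in germ cells by edgeR, and *bab1* and *bab2* were not. Germ cells mid replicate 1, the shallowest library, stood apart from the other germ libraries in the 9 genes. Tests on germ cells are therefore given with and without it. The quantity of RNA of a gene in a whole ovary library reflects both the number of cells that make it and the RNA per cell, and fewer cells of a type and less RNA per cell cannot be told apart.

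The hexamerin genes were the most abundant of the 9 at mid. *Lsp1alpha* (FBgn0002562, chromosome X, 12490291 to 12492982 in the BDGP6 build) measured 14.3, 2.83 and 43.8 CPM in the early whole ovary replicates 1, 2 and 3, 5459, 10154 and 12838 CPM at mid, and 126, 69.2 and 45.4 CPM at late. *Lsp2* (FBgn0002565, chromosome 3L, 12129393 to 12131869) measured 2.04, 1.28 and 12.3 CPM at early, 4492, 8638 and 10346 CPM at mid, and 1176, 1494 and 938 CPM at late. In both genes every mid library lay above every early and every late library, and every late library above every early one. Mid against early, the log2 fold change was 8.93 ± 1.09 (SE) for *Lsp1alpha* and 10.59 ± 1.03 for *Lsp2*, and late against mid it was -6.93 ± 1.0 and -2.75 ± 0.73. The mean level at late was thus 118-fold below mid for *Lsp1alpha* and 6.51-fold below mid for *Lsp2*. An antisense RNA gene, *asRNA:CR11538*, lies on the other strand of *Lsp2* and measured 18.7, 46.4 and 49.5 CPM at mid. The strand used in counting is not given in the sources used here, so the reads of the overlapping genes cannot be told apart.

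The other larval serum protein genes were already abundant at early. *Lsp1beta* (FBgn0002563, chromosome 2L, 898500 to 901316) measured 3938, 1076 and 1132 CPM at early, 12558, 36464 and 23102 CPM at mid, and 238, 117 and 120 CPM at late. *Lsp1gamma* (FBgn0002564, chromosome 3L, 66430 to 68995) measured 3610, 1126 and 599 CPM at early, 9114, 22436 and 19606 CPM at mid, and 944, 725 and 654 CPM at late. Both were highest at mid without overlap. At late *Lsp1beta* lay below its early level in every library, whereas the late and early libraries of *Lsp1gamma* overlapped. The log2 fold change mid against early was 3.62 ± 0.64 for *Lsp1beta* and 3.33 ± 0.65 for *Lsp1gamma*, and late against mid it was -7.29 ± 0.76 and -4.50 ± 0.69. Early replicate 1 was the highest early library for both genes, whereas early replicate 3 was the highest for *Lsp1alpha* and *Lsp2*. Some reads of *Lsp1alpha* and *Lsp1beta* were divided with other genes in each of the 9 whole ovary libraries, as their counts were not whole, and those of *Lsp2* in 8 of them, so the split between these genes carries the uncertainty of that estimate. The counts of *Lsp1gamma* were whole in all 9.

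*Fbp1* (FBgn0000639, chromosome 3L, 14094589 to 14098053), the receptor for hexamerins, had a later course. It measured 0.47, 0.381 and 0.475 CPM at early, which are 8, 7 and 13 counts, then 268, 40.3 and 1112 CPM at mid and 6219, 8550 and 4150 CPM at late. It was the only one of the 9 with its highest level at late, and its stages did not overlap. The log2 fold change was 10.13 ± 1.33 mid against early and 3.67 ± 0.95 late against mid. The mid replicates spread 27.6-fold, the widest range of any of the 9 genes at any stage, against 2.06-fold at late. By rank among all genes of a library, *Fbp1* was at 9587, 10194 and 10112 at early and at 8, 7 and 13 at late.

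*Fbp2* (FBgn0000640, chromosome 2L, 9426784 to 9427917), a storage protein related to alcohol dehydrogenase, and *Obp99b* (FBgn0039685, chromosome 3R, 29716254 to 29716896) followed *Lsp2* at a lower level. *Fbp2* measured 0.529, 0.327 and 2.74 CPM at early, 297, 365 and 530 CPM at mid, and 101, 147 and 84.4 CPM at late. *Obp99b* measured 1.94, 0.381 and 3.29 CPM at early, 206, 362 and 455 CPM at mid, and 111, 119 and 64.1 CPM at late. In both genes the stages did not overlap, and in both, as in *Lsp2*, early replicate 2 was the lowest library of all and mid replicate 3 the highest. The log2 fold change mid against early was 8.32 ± 0.70 for *Fbp2* and 7.53 ± 0.67 for *Obp99b*. Late against mid it was -1.89 ± 0.51 and -1.85 ± 0.50, the smallest differences of the 8 genes that were lower at late than at mid. Over the 9 whole ovary libraries the order of the levels of *Lsp2*, *Fbp2* and *Obp99b* was the same (Spearman's rho = 1 for *Lsp2* with each of the others), as a description of libraries that share stage and dissection.

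The lipoprotein genes had their highest levels at early. *apolpp* (FBgn0087002, chromosome 4, 1060969 to 1077273) measured 17828, 16664 and 19340 CPM at early, 2574, 7928 and 3030 CPM at mid, and 227, 235 and 114 CPM at late. It ranked 3, 4 and 3 among all genes in the early libraries. The counts of *apolpp* were not whole in any of the 9 whole ovary libraries. Its exons overlap those of *Zyx* on the other strand, which measured 110, 112 and 107 CPM at late, and reads from the overlap cannot be told apart. *Apoltp* (FBgn0032136, chromosome 2L, 9634179 to 9656026) measured 2399, 1778 and 1574 CPM at early, 248, 909 and 231 CPM at mid, and 30.8, 20.8 and 9.48 CPM at late. Both were lower at each later stage without overlap. The log2 fold change mid against early was -1.93 ± 0.44 for *apolpp* and -1.99 ± 0.57 for *Apoltp*, late against mid -4.59 ± 0.49 and -4.54 ± 0.65, and late against early -6.52 ± 0.54 and -6.54 ± 0.71. From early to late the mean level of *apolpp* was 93.4-fold lower and that of *Apoltp* 94.1-fold lower.

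**Figure D1:**
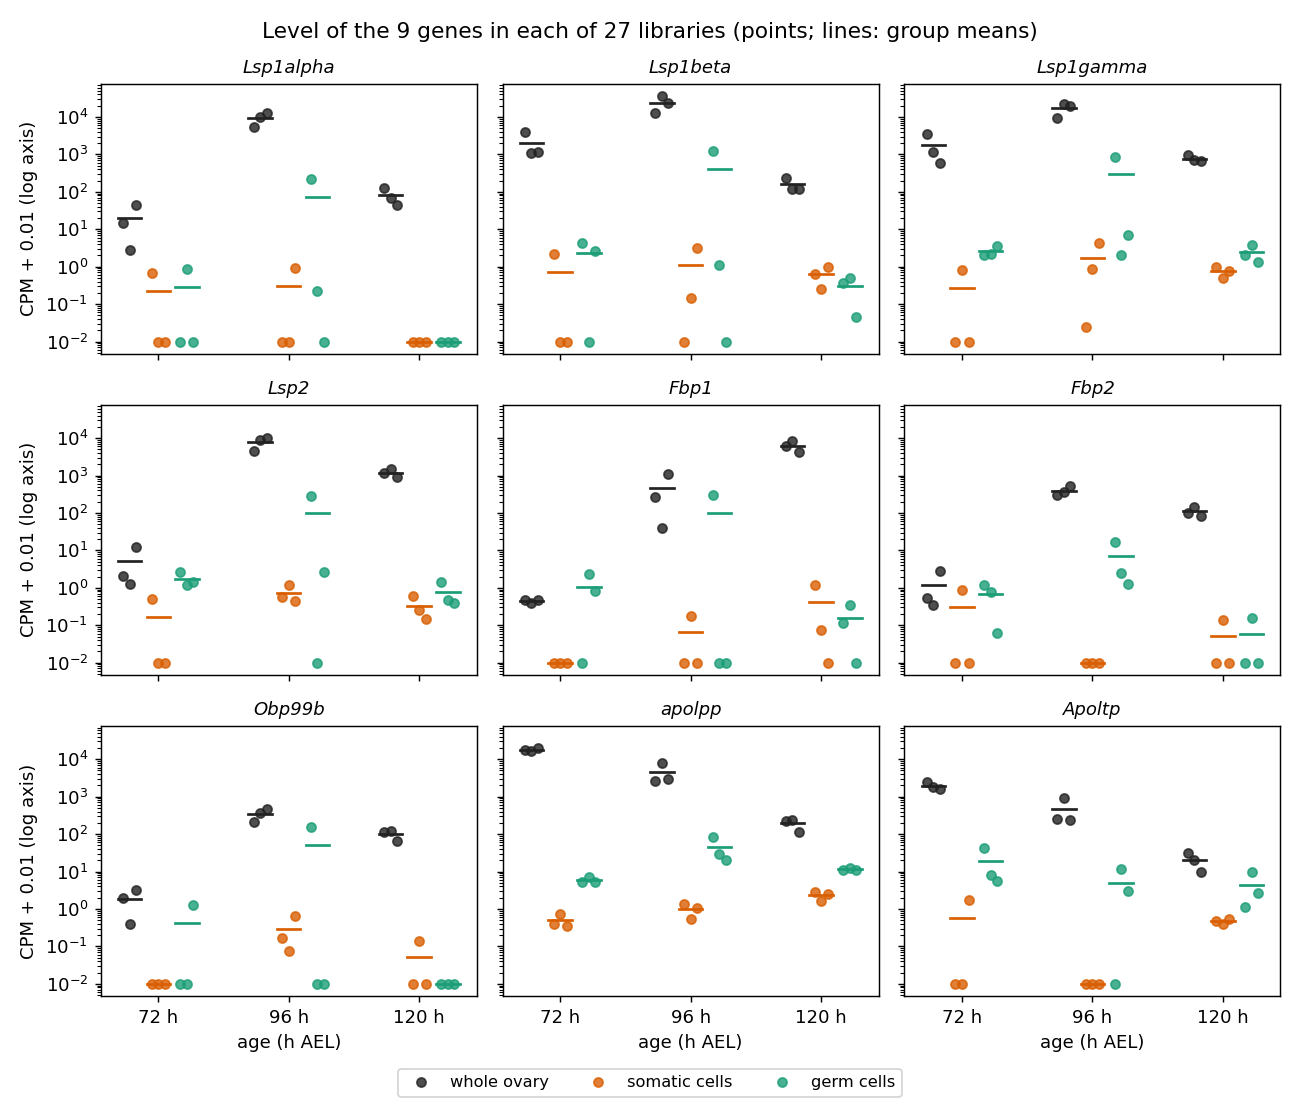
Level of each of the 9 genes in each of the 27 libraries, as CPM with 0.01 added on a log axis, by age in h AEL and by tissue (points are libraries, lines are means of 3). In whole ovaries the hexamerin genes, *Fbp2* and *Obp99b* were highest at 96 h, *Fbp1* at 120 h and *apolpp* and *Apoltp* at 72 h, while sorted cells other than 1 germ library at 96 h held at most 42.7 CPM of any of them.

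All 3 mid libraries lay above all 3 early libraries for 7 of the 9 genes, against 12.2% of the 10060 genes tested, and below them for the other 2, against 13.6%. Late libraries lay below mid libraries for 8 of the 9, against 31.5% of genes, and above them for *Fbp1*, against 25.9%. Late libraries lay above early ones for 5 genes, against 20.7%, and below them for 3, against 25.2%. With edgeR's quasi-likelihood test and an adjusted p under 0.01, 5 of the 9 were called mid against early, all higher, where 0.994% of all genes tested were called (0.398% higher, 0.596% lower). Late against mid 5 were called, all lower, where 14.8% of genes were called (5.76% higher, 9.07% lower). Late against early 4 were called higher and 3 lower, where 21.9% of genes were called (8.39% higher, 13.5% lower). As these contrasts chose the genes, nothing is read from these counts.

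Together the 9 genes took 2.23, 1.72 and 2.11% of all counts in the early whole ovary libraries, 3.44, 7.1 and 6.08% at mid, and 0.902, 1.12 and 0.632% at late. The makeup of that share changed at each stage. At early the lipoprotein genes held 1.62, 1.53 and 1.94% of all counts, and the 4 hexamerin genes 0.606, 0.183 and 0.166%. At mid the hexamerin genes held 3.09, 6.32 and 5.62%, and at late *Fbp1* alone held 0.612, 0.835 and 0.424%. Mid replicate 1 had the lowest share of the mid libraries, and the lowest level of 7 of the 9 genes.

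**Figure D2:**
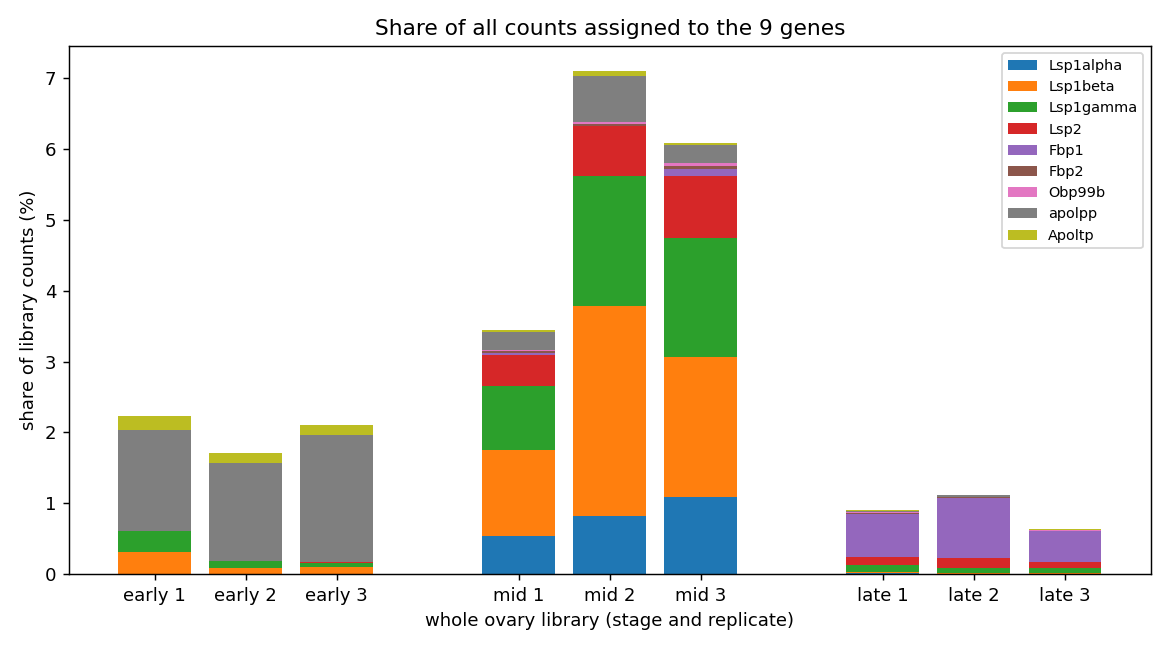
Share of all counts of each whole ovary library (percent) assigned to the 9 genes, stacked by gene, for the 3 replicates of each stage. The total was 1.72 to 2.23% at early, mostly *apolpp*, 3.44 to 7.1% at mid, mostly hexamerin genes, and 0.632 to 1.12% at late, mostly *Fbp1*.

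Levels between genes were compared per kilobase of coding sequence. At early *apolpp* led with 1785 ± 133 CPM per kb (SD, n = 3), ahead of *Lsp1beta* with 866 ± 691 and *Lsp1gamma* with 768 ± 694, and the libraries of each neighbouring pair overlapped. *Apoltp* followed with 147 ± 33.1 CPM per kb, clear of its neighbours on both sides, and the other 5 lay at means of 0.143 to 8.3. At mid *Lsp1beta* led with 10157 ± 5062 CPM per kb, then *Lsp1gamma* with 7363 ± 3031, *Lsp1alpha* with 3874 ± 1526 and *Lsp2* with 3721 ± 1431. Each of these 4 overlapped with the next, and all 3 libraries of *Lsp2* lay above those of *Obp99b*, the next in order with 763 ± 282 CPM per kb. At late *Fbp1* led with 2043 ± 713 CPM per kb, then *Lsp2* with 572 ± 133 and *Lsp1gamma* with 334 ± 65.2, none overlapping with the next. *Apoltp* was last at mid and at late, with 35.6 ± 29.7 and 1.57 ± 0.821 CPM per kb. Without the division by length, *apolpp* exceeded *Lsp1beta* at early 8.76-fold rather than 2.06-fold.

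Ratios of counts inside a library do not depend on its scaling, and they separated genes that shared a stage of highest level. The ratio of *Lsp1gamma* to *Lsp1beta* was 0.917, 1.05 and 0.529 at early, 0.726, 0.615 and 0.849 at mid, and 3.97, 6.21 and 5.45 at late. Late libraries were thus above all others, early and mid libraries overlapped, and the LSP1 gene that prevailed at late was *Lsp1gamma*. The ratio of *Lsp1alpha* to *Lsp1beta*, by contrast, was 0.00364, 0.00263 and 0.0387 at early, 0.435, 0.278 and 0.556 at mid, and 0.531, 0.593 and 0.378 at late, so that early libraries lay below the rest, and mid and late overlapped. The ratio of *Lsp2* to *Lsp1beta* was 0.000517 to 0.0108 at early, 0.237 to 0.448 at mid and 4.95 to 12.8 at late. The ratio of *Fbp1* to *Lsp2* was 0.0597, 0.00467 and 0.107 at mid and 5.29, 5.72 and 4.43 at late, without overlap. The ratio of *Apoltp* to *apolpp* stayed between 0.0763 and 0.136 in all 9 libraries while the mean level of each gene was 93.4-fold and 94.1-fold lower at late than at early.

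**Figure D3:**
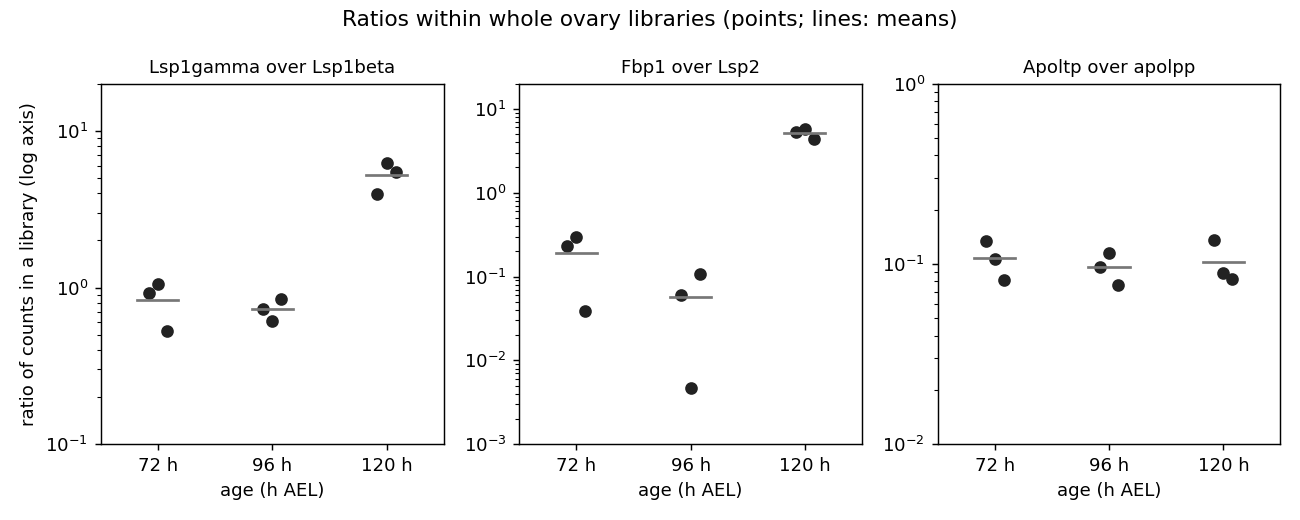
Ratios of expected counts within each whole ovary library, on log axes, by age in h AEL (points are libraries, lines are means of 3). *Lsp1gamma* over *Lsp1beta* was 0.529 to 1.05 at 72 h and 3.97 to 6.21 at 120 h, *Fbp1* over *Lsp2* was 0.00467 to 0.107 at 96 h and 4.43 to 5.72 at 120 h, and *Apoltp* over *apolpp* kept to 0.0763 to 0.136.

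Replicates of a stage differed for the 9 genes by patterns of their own. Among early libraries, replicate 3 was the highest for 6 of the 9 genes and replicate 2 the lowest for 7. The spread between early replicates was 15.4-fold for *Lsp1alpha*, 9.58-fold for *Lsp2*, 8.38-fold for *Fbp2* and 8.62-fold for *Obp99b*, against 1.16-fold for *apolpp*. Early replicate 3 was nevertheless the lowest of the 3 for *Lsp1gamma* and *Apoltp*. Among mid libraries, replicate 2 was the highest for *Lsp1beta*, *Lsp1gamma*, *apolpp* and *Apoltp* and the lowest for *Fbp1*, and replicate 3 was the highest for the other 5, *Fbp1* included.

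Markers of other tissues varied between the same libraries. The 6 hemocyte genes summed to 258, 816 and 233 CPM in mid replicates 1, 2 and 3, and the 6 muscle genes to 142, 568 and 167 CPM, so that mid replicate 2 was the highest in both, as in *apolpp* and *Apoltp*. At early, hemocyte genes summed to 377, 341 and 778 CPM and muscle genes to 260, 872 and 1244 CPM, highest in replicate 3. The muscle sum was 47.7, 63.4 and 27.8 CPM at late, below every early and mid library, whereas the hemocyte sum at late, 433, 447 and 423 CPM, lay within the range of the earlier stages. The late sum was mostly *Pxn*, at 414 ± 11 CPM (SD, n = 3), a gene that late somatic cells held at 1831 ± 231 CPM. The other 5 hemocyte genes had lower means at late than at mid, and 2 of them were called by edgeR, among them *Hml* (log2 fold change -6.62 ± 0.73, adjusted p = 0.000275). The 5 gut genes summed to at most 43.0 CPM and the 6 salivary gland genes to at most 2.63 CPM in any whole ovary library. The part of these tissues in the levels of the 9 genes was not tested.

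Sorted cells other than germ cells mid replicate 1 held little of the 9 genes. In the 9 somatic libraries they summed to between 0.000198 and 0.00105% of all counts, and in 8 of the 9 germ libraries to at most 0.00764%. In germ cells mid replicate 1 they summed to 0.28%. At the stage of its highest level in whole ovaries, the lowest whole ovary library exceeded the highest of the 9 somatic libraries 6019-fold for *Lsp1alpha*, 4048-fold for *Lsp1beta*, 5829-fold for *apolpp* and 332-fold for *Obp99b*, the last being the smallest such ratio of the 9 genes. Against the highest of the 8 germ libraries other than mid replicate 1, the smallest such ratio was 36.8-fold, for *Apoltp*. Whole ovaries did not lie above sorted cells at all stages. At early, the whole ovary libraries of *Fbp1*, 0.381 to 0.475 CPM, lay below germ cells early replicates 2 and 3, at 2.35 and 0.836 CPM. They lay above the early somatic libraries, and below 1 late somatic library, at 1.17 CPM. The early whole ovary libraries of *Lsp2*, *Fbp2* and *Obp99b* were not all above the early germ libraries either. At late, *Apoltp* measured 30.8, 20.8 and 9.48 CPM in whole ovaries and 1.1, 9.66 and 2.64 CPM in germ cells. Only the lowest of these whole ovary libraries lay below a late germ library. All 3 lay below the highest germ library of any stage, early replicate 1, at 42.7 CPM. *Fbp1* had no count in the 3 early somatic libraries, in which 3 counts would correspond to at most 0.0852 CPM, and *Lsp1alpha* had none in 7 of the 9 somatic libraries.

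The difference between germ and somatic cells over all stages was not used to choose the genes, although their low counts in sorted cells were. *apolpp* measured 5.15, 7.24 and 5.1 CPM in early germ cells, 84.2, 29.6 and 20.3 CPM at mid, and 11.2, 12.7 and 11.2 CPM at late. In somatic cells it measured 0.386, 0.733 and 0.341 CPM at early, 1.33, 0.533 and 1.05 CPM at mid, and 2.86, 1.63 and 2.45 CPM at late. All 9 germ libraries lay above all 9 somatic libraries, with means of 20.7 ± 25.1 and 1.26 ± 0.906 CPM (SD, n = 9 each). *apolpp* was called higher in germ cells by edgeR's quasi-likelihood test (log2 fold change 3.80 ± 0.35, adjusted p = 4.8e-07), where 25.3% of 11243 genes were called (12.7% higher and 12.6% lower in germ cells). Without germ cells mid replicate 1 the log2 fold change was 3.52 ± 0.31 (adjusted p = 4.35e-07), and the call held without each of the 18 libraries in turn. The exons of *apolpp* overlap those of *Zyx* on the other strand, and reads from the overlap cannot be told apart. Its counts were not whole in 2 of the 18 sorted libraries.

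*Apoltp* measured 42.7, 8.0 and 5.41 CPM in early germ cells, 0, 11.6 and 3.02 CPM at mid, and 1.1, 9.66 and 2.64 CPM at late. In somatic cells it had counts in 4 of 9 libraries, at 1.7 CPM in 1 early library and at 0.467, 0.375 and 0.544 CPM at late. The mean was 9.35 ± 13.1 CPM in germ cells and 0.343 ± 0.559 CPM in somatic cells (SD, n = 9 each), a ratio of 27.2, and 7 of 9 germ libraries lay above all somatic ones. It was called higher in germ cells by edgeR (adjusted p = 0.00228), and without germ cells mid replicate 1, in which it was at 0, the adjusted p was 0.00101. The fitted fold change is not given, since the 3 mid somatic libraries had no counts. In early whole ovaries *Apoltp* averaged 1917 ± 430 CPM (SD, n = 3).

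**Figure D4:**
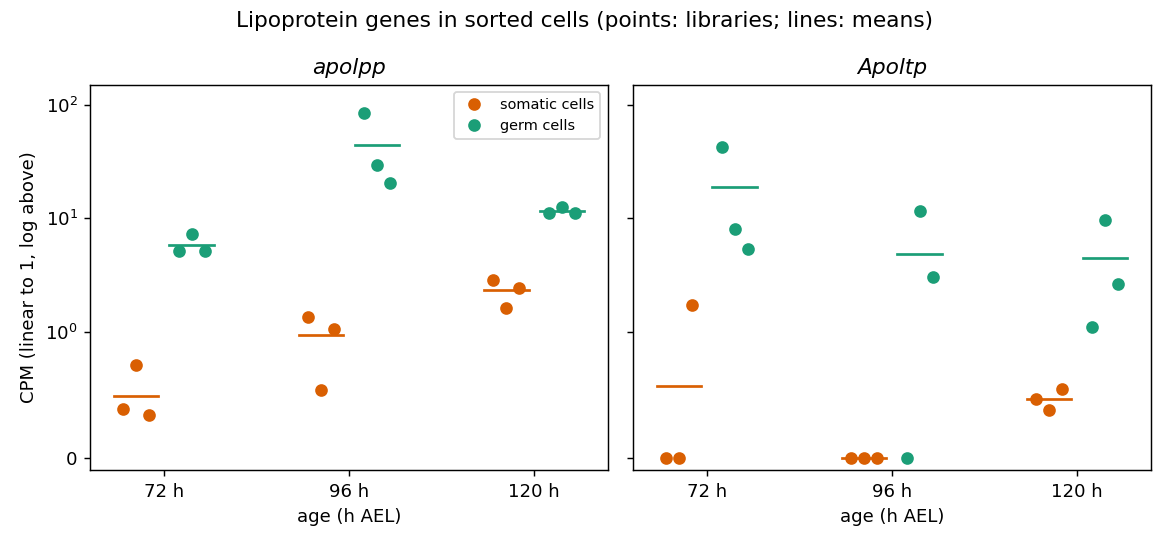
Level of *apolpp* and *Apoltp* in sorted somatic and germ cells by age in h AEL, in CPM on an axis that is linear to 1 and logarithmic above (points are libraries, lines are means of 3). For *apolpp* all 9 germ libraries, 5.1 to 84.2 CPM, lay above all 9 somatic libraries, 0.341 to 2.86 CPM, and for *Apoltp* 7 of 9 germ libraries lay above all somatic ones.

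The same test called *Lsp1gamma* (log2 fold change 4.12 ± 1.07, adjusted p = 0.0063) and *Lsp2* (3.90 ± 1.08, adjusted p = 0.00934) higher in germ cells. Both calls were lost without germ cells mid replicate 1. Without it the log2 fold change was 2.12 ± 0.99 for *Lsp1gamma* (adjusted p = 0.0966) and 1.85 ± 1.11 for *Lsp2* (adjusted p = 0.198). The call on *Lsp1gamma* was lost in 13 and that on *Lsp2* in 15 of the 18 fits that left out 1 library each. The other 5 genes were not called. DESeq2 called 2 of the 9 higher.

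By edgeR on all libraries of a tissue, no stage change of the 9 genes was called in sorted cells. Low counts there were part of the choice of the genes, so the lack of calls does not show steady levels. Of the 5 of them that passed the filter on low counts in somatic cells and the 7 that passed in germ cells, none reached an adjusted p under 0.01 by edgeR at either transition. In somatic cells 1.9% of genes were called mid against early (0.896% higher, 1.01% lower) and 6.56% late against mid (3.08% higher, 3.47% lower), and in germ cells 0% at both transitions. At an unadjusted p under 0.05 edgeR gave 1 of the 9 at each transition in somatic cells, and 5 and 6 in germ cells. DESeq2 called none of them in somatic cells, and in germ cells 1 mid against early and 2 late against mid. Without germ cells mid replicate 1, edgeR again called none in germ cells, with 1 at an unadjusted p under 0.05 at each transition, and DESeq2 called 1 and 0. The log2 fold change of *apolpp* in germ cells was 2.93 ± 0.55 mid against early (adjusted p = 0.135) and -1.92 ± 0.53 late against mid (adjusted p = 0.355). Without germ cells mid replicate 1 these were 2.07 ± 0.37 (adjusted p = 0.0882) and -1.06 ± 0.36 (adjusted p = 0.389), all by edgeR. The first was 3.34 ± 0.47 (adjusted p = 0.00453) without mid replicate 4, which passes the threshold. All 3 mid germ libraries lay above all early and all late ones, while in whole ovaries mid lay below early. Among genes tested in germ cells, 5.28% lay higher at mid than at early without overlap, and 3.81% lower at late than at mid. In somatic cells all 3 late libraries of *apolpp* lay above all 3 mid libraries, as they did for 22.6% of genes tested, with 21.2% below. By the test of the difference between tissues, the change of *apolpp* late against mid differed between germ and somatic cells by a log2 value of -3.17 ± 0.78 (adjusted p = 0.0478), which did not pass. That test called none of the 9 genes at either transition, where 0.0356% and 0.276% of genes were called (at late against mid 0.249% higher, 0.0267% lower). At an unadjusted p under 0.05 it gave 2 and 7 of them, and DESeq2 called 0 and 1. Without germ cells mid replicate 1 the difference of *apolpp* late against mid was -2.33 ± 0.72 (adjusted p = 0.0935), and edgeR called none of the 9, with 3 at an unadjusted p under 0.05 at each transition. DESeq2 then called 0 and 1.

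Germ cells mid replicate 1 held 10461 counts of *Lsp1beta*, 7483 of *Lsp1gamma*, 2611 of *Fbp1*, 2460 of *Lsp2*, 1915 of *Lsp1alpha* and 1280 of *Obp99b*. In CPM these are 1225, 877, 306, 288, 224 and 150, against at most 4.34, 7.01, 2.35, 2.71, 0.845 and 1.25 CPM in any of the other 8 germ libraries. The 9 genes took 0.28% of its counts. Its ratio of *Lsp1gamma* to *Lsp1beta*, 0.715, lay within the range of the mid whole ovary libraries and also within that of the early ones. That of *Lsp1alpha* to *Lsp1beta*, 0.183, lay below the mid range, and the ratio of *Lsp2* to *Lsp1beta*, 0.235, lay just under the lowest mid value, 0.237. In contrast *Fbp1* to *Lsp1beta* was 0.25, against 0.00111 to 0.0481 in mid whole ovaries, *Obp99b* to *Lsp1beta* was 0.122, against 0.00993 to 0.0197, and *apolpp* to *Lsp1beta* was 0.0687, against 0.131 to 0.217. *Apoltp* was at 0. The same library held the glue protein genes of the salivary gland *Sgs3*, at 138 CPM, and *Sgs5*, at 26.6 CPM, which reached at most 0.784 and 0 CPM in the other germ libraries, and the trypsin gene *deltaTry* of the gut, at 60.8 CPM against at most 1.9. The other gut genes *mex1*, *betaTry* and *Amy-p* were at 0 there, and *Mal-A1* was at 9.49 CPM against at most 2.14. Of the 46 other fat body genes described below, *FASN1* measured 1271 CPM there against at most 1449 elsewhere in germ cells, and *Gnmt*, *Sardh*, *hgo* and *Hn* were at 0. The first 3 of these reached at most 1.25 CPM in the other germ libraries. Of the storage protein relatives described below, *Adh* measured 29.4 CPM against at most 16.3 elsewhere, and *PPO1* 20.1 against at most 1.26. *PPO2* and *Obp99c* were also above the other germ libraries, and *PPO3*, *Adhr*, *Obp99a* and *Obp44a* were at 0. The 4 ovarian somatic genes summed to 3664 CPM there, against at most 2868 CPM in the other germ libraries, and 4 neuron genes to 82.4 CPM against at most 37.5. The sums of hemocyte and muscle genes were not the highest of the germ libraries. The part of other tissues in this library was not tested.

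Genes related to the 9 by family or pathway were followed in whole ovaries, in lists drawn up with earlier results of these data known. Of 9 relatives of the storage proteins, 8 were tested. By edgeR none was called mid against early (3 at an unadjusted p under 0.05, 0 by DESeq2), and 5 fell late against mid, 5 also by DESeq2, where 9.07% of all genes tested fell (median log2 fold change of the 8 -4.14, of all genes tested -0.11). *PPO2*, a prophenoloxidase of the same protein superfamily as the hexamerins, measured 180, 93.6 and 111 CPM at early, 176, 650 and 234 CPM at mid and 9.63, 4.58 and 12 CPM at late. It is made by crystal cells, a type of hemocyte. At mid *PPO2* and the hemocyte genes were both highest in replicate 2. At early *PPO2* was highest in replicate 1 and the hemocyte genes in replicate 3. The part of hemocytes in its level was not tested. Late against mid *PPO2* fell by 5.36 ± 0.61 on the log2 scale (adjusted p = 0.000333). Late against early, *Adh*, the alcohol dehydrogenase gene, fell by 7.05 ± 0.75 (adjusted p = 0.00015), from 964 ± 695 to 7.16 ± 1.28 CPM (SD, n = 3).

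Of 8 genes that load, carry or take up lipids with lipophorin, edgeR called 1 lower mid against early, where 0.596% of all genes tested fell. Late against mid 2 rose and none fell, where 5.76% of genes rose and 9.07% fell. DESeq2 called 3 lower mid against early, and 2 higher and 2 lower late against mid. The median log2 fold change of the 8 was -0.07 and 0.03. *Mtp*, the microsomal transfer protein that lipidates apolipophorin, fell by 2.06 ± 0.30 mid against early (adjusted p = 0.00831), from 1096, 862 and 660 CPM to 136, 286 and 176 CPM. At late it measured 183, 145 and 120 CPM, and its log2 fold change late against mid was -0.46 ± 0.29 (adjusted p = 0.248), where that of *apolpp* was -4.59 ± 0.49. The difference between the genes was not tested. Late against mid *NLaz*, a lipocalin gene, rose by 6.15 ± 0.78 (adjusted p = 0.000598), from 0.474 ± 0.176 to 35.2 ± 11.1 CPM, and *LRP1*, a receptor of the low density lipoprotein receptor family, by 2.13 ± 0.24 (adjusted p = 0.000305), from 143 ± 10.5 to 646 ± 231 CPM. Late against early *cv-d*, which encodes a lipoprotein related to vitellogenins, fell by 3.62 ± 0.49 (adjusted p = 0.000556). All 8 genes of this list also averaged 1 CPM or more in somatic and in germ cells.

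Most other fat body genes that were called were lower at later stages. Of 46 genes in 4 lists, 43 were tested in whole ovaries. By edgeR 2 fell mid against early, 16 fell and 1 rose late against mid, and 19 fell late against early. Of all genes tested 0.596% fell mid against early, 9.07% fell and 5.76% rose late against mid, and 13.5% fell late against early. DESeq2 called 2 higher and 10 lower mid against early, 2 and 23 late against mid, and 2 and 24 late against early. The count mid against early was 0 without early replicate 1 or 2, mid replicate 1 or 3 or any of the late replicates, 6 without early replicate 3 and 7 without mid replicate 2. Late against mid it was 26 without early replicate 3 and 9, 8 and 7 without late replicates 1, 2 and 3. The median log2 fold change of the 43 was -0.36, -1.66 and -1.19, against 0.03, -0.11 and -0.05 over all genes tested. Of the 46, 29 averaged 1 CPM or more in somatic cells and 31 in germ cells, so that these lists are not markers of fat body alone.

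Among 11 lipid store genes 5 fell late against mid by edgeR and 6 by DESeq2, where edgeR called 9.07% of all genes tested lower. *AcCoAS*, which makes acetyl-CoA, measured 1787, 1289.5 and 685 CPM at early, 143, 396 and 190 CPM at mid and 19.0, 23.9 and 16.5 CPM at late. Late against early it fell by 5.96 ± 0.51 on the log2 scale (adjusted p = 5.41e-05). *ACC*, which encodes acetyl-CoA carboxylase of fatty acid synthesis, also fell late against early, from 3292 ± 1028 to 154 ± 9.93 CPM (SD, n = 3). Of 15 genes of sugar and amino acid metabolism, 14 were tested. By edgeR 8 fell and 1 rose late against mid, where 9.07% of all genes tested fell and 5.76% rose. DESeq2 called 10 lower and 1 higher. *Tps1*, trehalose phosphate synthase, measured 1029, 869 and 508 CPM at early, 87.6, 282 and 135 CPM at mid and 2.8, 5.42 and 3.86 CPM at late. Late against early it fell by 7.59 ± 0.56 on the log2 scale (adjusted p = 2.36e-05). *Sardh*, sarcosine dehydrogenase, fell by 5.02 ± 0.39 late against mid (adjusted p = 4.26e-05), from 40.6 ± 10.8 to 1.26 ± 0.214 CPM, and had no counts in any somatic library. The gene that rose was *Gs1*, a glutamine synthetase gene (1.69 ± 0.37, adjusted p = 0.00852).

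Of 9 hormone and receptor genes tested 3 fell late against mid by edgeR and 5 by DESeq2, where edgeR called 9.07% of all genes tested lower. *AkhR*, the receptor for adipokinetic hormone, measured 85.8, 73.0 and 53.4 CPM at early, 16.1, 62.3 and 25.0 CPM at mid and 1.75, 1.97 and 1.47 CPM at late. Late against early it fell by 5.33 ± 0.52 (adjusted p = 9.83e-05), and *CCHa2*, a peptide hormone gene, fell by 6.35 ± 0.68 (adjusted p = 0.000144). Like *apolpp* and *Apoltp*, and unlike *Lsp2*, both had their highest mean at early, and their highest mid library was replicate 2. Of 9 secreted iron and immune protein genes tested, none was called by edgeR at either transition or late against early. At an unadjusted p under 0.05 there were 1, 5 and 4, and DESeq2 called 0, 3 and 3. Their median log2 fold change was 0.54 mid against early and -2.04 late against mid.

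**Figure D5:**
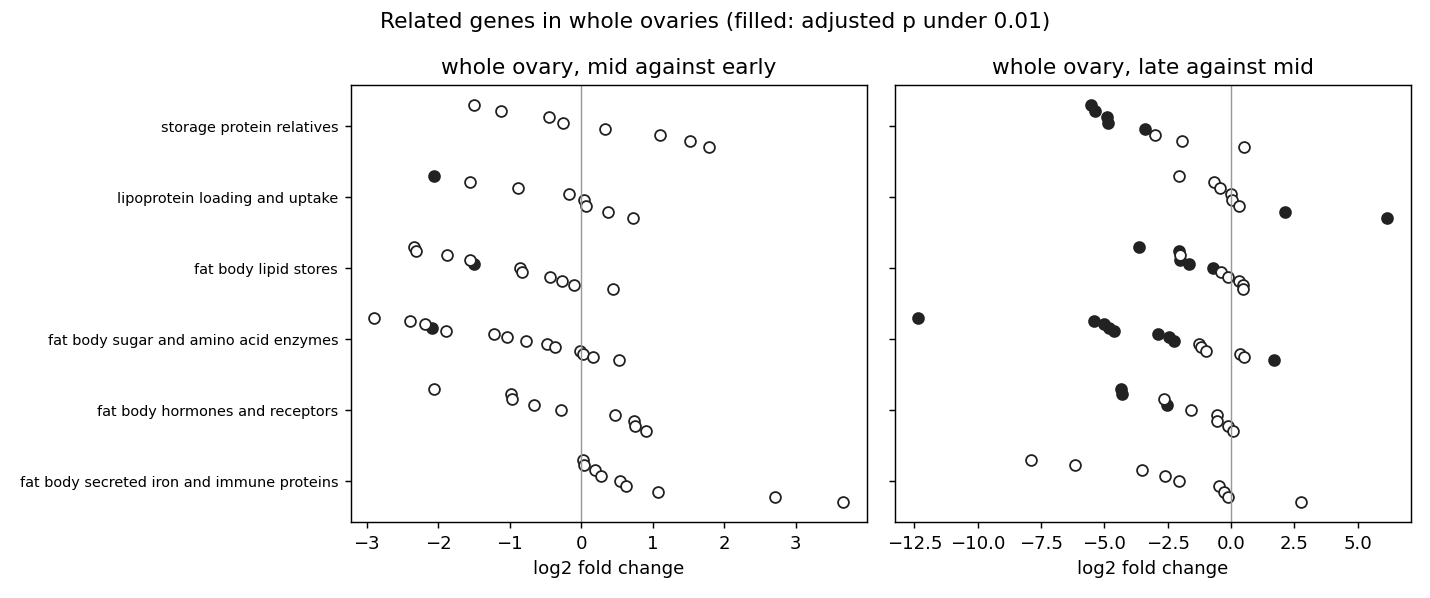
Log2 fold change of each tested gene of 6 lists in whole ovaries, mid against early on the left and late against mid on the right (1 point per gene, filled where the adjusted p was under 0.01; the point farthest left late against mid is *Gnmt*, which had no counts at late, so that its fitted value is no measure of size). Mid against early 3 of these genes were called, all lower, where 0.596% of all genes tested were called lower. Late against mid most points lay left of 0 in each list but that of lipoprotein loading and uptake. Called lower were 5 storage protein relatives, 5 lipid store genes, 8 sugar and amino acid enzymes and 3 hormones and receptors, where 9.07% of all genes tested were.

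Across the 9 whole ovary libraries, which share stage and dissection, the genes with levels most like a given one were ranked by Pearson's r of log2(CPM + 1). For *Lsp2*, *Fbp2* (r = 0.999) and *Obp99b* (r = 0.996) came before every tested gene outside the 9, and the highest of those was *CG3961* with r = 0.98, at 5.13, 60.8 and 33.5 CPM at early, mid and late (means). The next were *l(2)k09913*, *Gba1b*, *comt* and *CG31075*, with r of 0.933 to 0.969, then *Tbcb*, *Pepck2*, *nw*, *CG13928* and *CG16790*, down to 0.92. Of these 10, *Pepck2* was the one with no sorted library above 1.63 CPM. With *Lsp2*, r was 0.848 for *Lsp1alpha*, 0.776 for *Fbp1*, 0.495 for *Lsp1gamma* and 0.243 for *Lsp1beta*. Spearman's rho was 0.983 for *Lsp1alpha*, and 0.533, 0.567 and 0.467 for the other 3, which were close to each other.

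For *apolpp*, *Apoltp* had r = 0.995. The 10 other genes most like *apolpp* had r of 0.989 to 0.996: *peg*, *Esyt2*, *flap*, *CG3999*, *cpx*, *CG10433*, *Tig*, *prc*, *Rab3-GEF* and *5-HT2A*. Among them *Tig*, which encodes tiggrin, an extracellular matrix protein, measured 3460, 724 and 11.6 CPM at early, mid and late (means), *prc*, which encodes the matrix protein pericardin, 3419, 501 and 0.786 CPM, and *CG3999* 327, 99.0 and 7.16 CPM. In no sorted library did *CG3999* exceed 0.313 CPM, *prc* 2.14 CPM or *Tig* 9.44 CPM, whereas *peg* reached 36.3 CPM in somatic cells and *Rab3-GEF* 246 CPM in germ cells. *Fbp1* ran opposite to *apolpp* (r = -0.933).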

How the data were processed

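RNA of 27 libraries was enriched for poly-A and sequenced as single-end reads. Per the labels and the study's methods, the authors aligned reads with STAR 2.7.6a and estimated expected counts per gene with RSEM 1.3.3, and deposited them in 2 tables, without normalization. RSEM divides reads shared by several genes, so an expected count need not be whole. Expected counts were rounded and tested with edgeR 4.0.16 (quasi-likelihood, TMM, filterByExpr with a minimum count of 10, R 4.3.3), with Benjamini-Hochberg adjustment and a threshold of 0.01. Each tissue was fitted by itself with 3 stages, and both sorted tissues together. DESeq2 1.42.0, other scalings, no filter, a replicate block and fits without each library were alternatives. The fits were checked on simulated counts. P-values measure the spread between these libraries of pooled ovaries. CPM used TMM over all 27 libraries. A count of 3 was the floor. Positions and coding lengths are from Ensembl release 115.

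The 9 genes and all lists were chosen with earlier results of these data known. Named from each list were at most 4 genes, the 2 with the smallest adjusted p in each direction among those called in whole ovaries, and by likeness the 10 genes nearest to *Lsp2* and to *apolpp*. Apart from these, the genes given for germ cells mid replicate 1 and *Pxn* were named after their values were seen.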

Additional observations from a re-analysis of the deposited data

Results flagged for a closer look

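In 3 cases a lipoprotein gene moved in opposite directions in whole ovaries and in sorted cells, with all 3 libraries of one stage on one side of all 3 of the other in both tissues. The difference was not tested in any of them. The 9 genes were searched at both transitions, in whole ovaries against each sorted tissue. Of genes tested, 13.6% lay lower mid against early without overlap in whole ovaries, and 5.28% higher in germ cells. Late against mid, 31.5% lay lower in whole ovaries and 22.6% higher in somatic cells. The share of genes with opposite directions was not computed. Mid against early, *apolpp* had a log2 fold change of 2.93 in germ cells, where it measured 5.1 to 7.24 CPM at early and 20.3 to 84.2 CPM at mid, and of -1.93 in whole ovaries. Without germ cells mid replicate 1, at 84.2 CPM, the value in germ cells was 2.07 (edgeR, adjusted p = 0.0882), and mid libraries still lay above early ones. Late against mid, *apolpp* had a log2 fold change of 1.27 in somatic cells, from 0.533 to 1.33 CPM at mid to 1.63 to 2.86 CPM at late, and of -4.59 in whole ovaries. Late against mid, *Apoltp* went from no count in the 3 mid somatic libraries to a mean of 0.462 CPM at late. That mean rests on 8, 6 and 8 counts. The log2 fold change of *Apoltp* in whole ovaries was -4.54. In germ cells the change of *apolpp* had an adjusted p of 0.135 by edgeR and 4.29e-06 by DESeq2, and in somatic cells those of *apolpp* and *Apoltp* had adjusted p of 0.458 and 0.162 by edgeR. The levels in somatic cells reach at most 2.86 CPM, against 114 to 7928 CPM of *apolpp* in whole ovaries at these stages.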

How the results depend on the processing

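The log2 fold changes of the 9 genes in whole ovaries kept their sign under every alternative run, and moved by 1 SE or more in 9 values mid against early, 3 late against mid and 6 late against early. Counts of calls depended on the tool. With DESeq2, mid against early in whole ovaries gave 9 of the 9 genes, 12 other fat body genes and 692 genes in all (edgeR 5, 2 and 100), and late against mid 9 of the 9 and 2809 in all (5 and 1491). In somatic cells DESeq2 called 865 genes mid against early (189, and 296 without the filter) and 1403 late against mid (651). In germ cells it called 1 of the 9 and 549 genes mid against early (0 and 0, and 1 gene without the filter), and 2 of the 9 and 244 genes late against mid (0 and 0). Germ against somatic cells gave 2 of the 9 with DESeq2 and 2 without the filter (4), and the germ minus somatic difference late against mid gave 1 with DESeq2 (0). DESeq2 without germ cells mid replicate 1, chosen after seeing the data, called 589 genes in germ cells mid against early (1 of the 9), 298 late against mid, and 4647 (2 of the 9) between germ and somatic cells (2844 by edgeR). It called 1 of the 9 for the germ minus somatic difference late against mid.

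The replicate numbers did not pair the libraries: deviations of same-numbered libraries correlated at -0.115 to 0.2 in whole ovaries, -0.0402 to 0.0583 in somatic and -0.15 to 0.0196 in germ cells. With the replicate block, mid against early in whole ovaries gave 3 of the 9 genes, 0 other fat body genes and 14 genes in all.

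Leaving out 1 library gave, mid against early in whole ovaries, 0 to 6 of the 9 genes, 0 to 7 other fat body genes and 0 to 211 genes in all. Of the 9, none was left when mid replicate 3 or late replicate 1 was dropped, 2 when early replicate 2 was, and 3 when mid replicate 1 or late replicate 2 or 3 was. Late against mid it was 4 to 8 (8 without early replicate 3), 7 to 26 and 695 to 2939, and late against early 1233 to 3280 genes in all. In somatic cells the totals were 66 to 226 and 218 to 728. In germ cells mid against early they were 0 to 485 genes and 0 to 1 of the 9, the 1 being *apolpp* without mid replicate 4. Germ against somatic cells gave 2 to 5 of the 9.

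Without TMM, the summed CPM of the 9 in early whole ovaries was 477-fold that of germ cells (705 with it). Without the division by length *apolpp* exceeded *Lsp1beta* at early 8.76-fold (2.06). With Spearman's rho, 3 of the 10 genes most like *Lsp2* and 2 of the 10 most like *apolpp* stayed in that list. Depth limits the early levels of *Fbp1* in whole ovaries, which rest on 7 to 13 counts, and most levels in sorted cells, where 3 counts are 0.0412 to 0.31 CPM by library totals.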
